A study of Homo sapiens with 59 samples.

Results

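Scutellariae Radix, the dried root of Scutellaria baicalensis, is a herbal medicine known for its flavones, among them baicalin, baicalein and wogonin. RNA was sequenced from the established human liver cancer line HepG2 24 h after treatment with a hot water extract of this root at 100 ug/mL or with the DMSO vehicle. The comparison took the 3 libraries labelled as the medium dose of Scutellariae Radix and the 3 vehicle libraries, 6 of the 59 libraries of the series, and all genes were included. The study profiled water extracts of several herbal medicines on this line, each at 3 doses, to describe each by the transcripts that it changes. Other groups used here, with 3 libraries each, were the extract of Pinelliae Tuber at 100 ug/mL and the same Scutellariae Radix extract at 20 and at 500 ug/mL. Below, "the extract" is Scutellariae Radix at 100 ug/mL unless another dose or herb is named.

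The labels limit the vehicle comparison in several ways. For the vehicle, the samples' own labels name DMSO at 0.1% but the text on the whole series has 2%, and the labels of the extract groups give no DMSO content, so an effect of the extract and one of DMSO cannot be told apart there. The code in the sample titles starts with 1 for vehicle and with 3 for Scutellariae Radix and Pinelliae Tuber. What the number stands for is not said, and all titles carry the same batch label. For this reason the extract was also set against Pinelliae Tuber at the same dose and against its own other doses, which need no vehicle library. Whether the replicates came from separate cultures is not stated either. The p-values rest on the spread between replicate libraries in all groups of the series, which may be technical.

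The aryl hydrocarbon receptor (AHR) is a transcription factor held in the cytosol until a planar ligand, such as a dioxin, an indole or a flavonoid, binds it. It then enters the nucleus, pairs with ARNT and binds DNA elements with the core GCGTG, and in liver cells it switches on the cytochrome P450 genes CYP1A1 and CYP1A2 and its own repressor AHRR. NRF2, encoded by NFE2L2, is the main regulator of antioxidant genes. KEAP1 marks it for breakdown until electrophiles or oxidants modify KEAP1, and NRF2 then pairs with small MAF proteins and binds antioxidant response elements.

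The 6 libraries compared held 24090685 to 27268226 counts. Replicates differed from each other by more than counting noise, with a mean chi-square per gene of 3.61 to 6.14 among the extract libraries and 2.19 to 3.77 among the vehicle libraries, and each was counted as its own sample. One Pinelliae Tuber 100 ug/mL library, replicate 3, stood apart from its fellows at 17.3 to 17.4. The share of counts on genes of the mitochondrial genome was 9.84 to 11.25% with the extract and 9.09 to 9.88% with vehicle. All 10 hepatocyte markers, albumin and alpha-fetoprotein among them, were above 1 CPM (counts scaled for sequencing depth and library composition) in both groups, and their summed level was 35920 to 37080 CPM with the extract and 41950 to 42650 CPM with vehicle. Against vehicle 5 of the 10 fell and 1 rose. Of 24 markers of other cell types, 8 were at 0 in all extract libraries and 7 in all vehicle libraries, among them the leukocyte marker PTPRC and the fibroblast marker DCN in both groups. Others were well above 0, and 8 averaged at least 1 CPM with the extract and 7 with vehicle. Among these were EPCAM (149 CPM with the extract and 143 CPM with vehicle), KRT19 (138 and 149 CPM) and ACTA2 (47.0 and 51.1 CPM). The sum of these 24 was 1613 to 1665 CPM with the extract and 1745 to 1764 CPM with vehicle, most of it lysozyme (LYZ), at 1248 CPM with the extract and 1372 CPM with vehicle on average. In such bulk samples, fewer cells of a type and less RNA per cell cannot be told apart.

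Against vehicle, the extract changed 2431 of 16641 genes tested (14.6%) at an adjusted p under 0.05, by edgeR's quasi-likelihood test with Benjamini-Hochberg adjustment over all genes. Of these, 1209 rose (7.27% of genes tested) and 1222 fell (7.34%). Most changes were small. The median size of a called change was 0.24 on the log2 scale, and 119 genes (0.715%) changed at least 2-fold, 66 upward and 53 downward. Among genes of at least 1 CPM in the higher group whose libraries did not overlap between groups, the largest rises were CYP1A2, CYP1A1 and ALDH3A1, all AHR targets, and the largest falls were PDGFRB, HOXD1 and KCNJ10. Between these extremes lay moderate rises of NRF2 targets and small rises of ribosome biogenesis genes, as the plot of change against abundance shows. The median change of all genes tested was -0.005. In 2720 genes (16.3%) all extract libraries lay above all vehicle libraries, and in 2874 (17.3%) below them. Groups without overlap, given for single genes below, are therefore common among all genes. The list counts below are to be read beside the 7.27% of genes tested that rose and the 7.34% that fell.

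**Figure D1:**
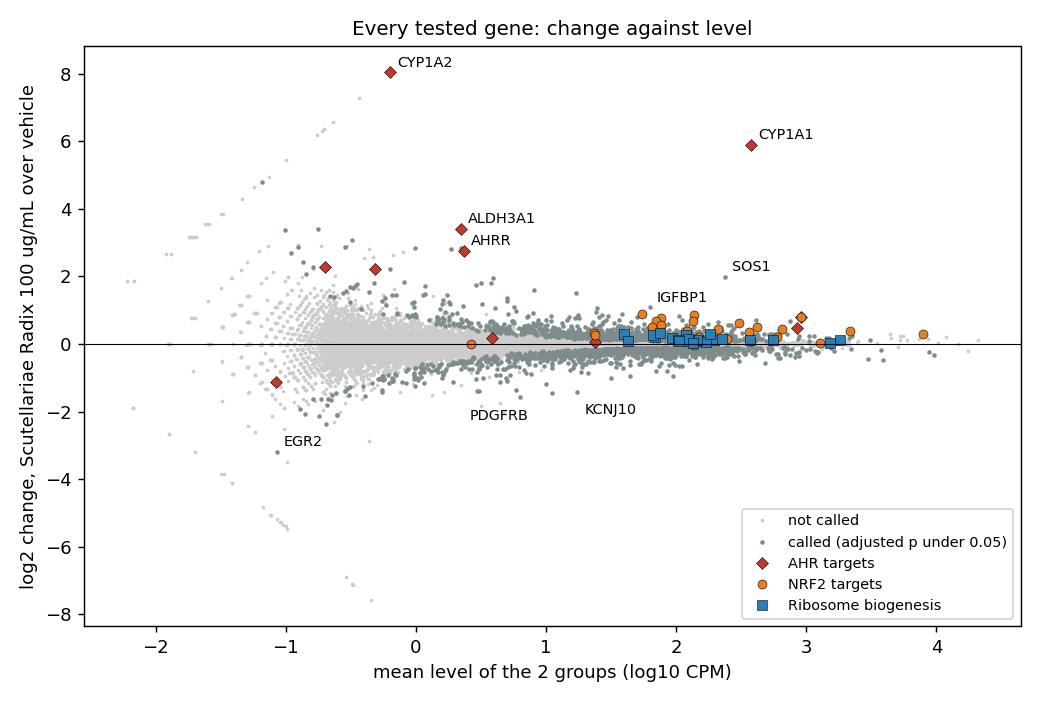
Log2 change with Scutellariae Radix 100 ug/mL against vehicle (vertical axis) against mean abundance in log10 CPM (horizontal axis), 1 point per gene tested, with AHR targets, NRF2 targets and ribosome biogenesis genes marked. CYP1A1 stands above all genes of its abundance at 5.90, NRF2 targets reach 0.89, and ribosome biogenesis genes reach 0.33.

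The AHR targets gave the largest response. Of 11 targets tested, 8 rose and none fell (0 at an unadjusted p under 0.05 and 0 by DESeq2), with a median log2 change of 2.23 against -0.005 over all genes. CYP1A1, which oxidises polycyclic aromatic compounds and is the classical readout of the receptor, had 708, 741 and 765 CPM with the extract, against 11.5, 11.9 and 13.6 CPM with vehicle (log2 change 5.90, SE 0.0913, adjusted p = 1e-43). All 3 extract libraries lay far above all vehicle libraries. Its close relative CYP1A2, which metabolises caffeine, had 1.08, 1.50 and 1.22 CPM with the extract and no count in any vehicle library. Its 98 counts over the extract group made it at least 32.4-fold higher, with the vehicle set at a floor of 3 counts over the group. AHRR, the repressor that competes with the receptor for ARNT, had 3.27, 3.98 and 5.02 CPM with the extract, against 0.463, 0.608 and 0.721 CPM with vehicle (log2 change 2.77, SE 0.2, adjusted p = 1.5e-15). ALDH3A1, an aldehyde dehydrogenase and long-known AHR target, had 3.74, 4.10 and 4.35 CPM with the extract, against 0.386, 0.266 and 0.481 CPM with vehicle (log2 change 3.42, SE 0.235, adjusted p = 2.6e-16). Neither gene's groups overlapped.

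The promoters of CYP1A1, AHRR and SOS1 are shown as those of strongly raised genes whose RefSeq promoter window holds the AHR core motif. SOS1, described below, is not in the target list. The windows run from 250 bases before to 50 after a start site (RefSeq, GRCh38.p14), 5′ to 3′ on the gene's strand, and the capitals mark GCGTG.
CYP1A1 (chr15:74725479-74725778, minus strand): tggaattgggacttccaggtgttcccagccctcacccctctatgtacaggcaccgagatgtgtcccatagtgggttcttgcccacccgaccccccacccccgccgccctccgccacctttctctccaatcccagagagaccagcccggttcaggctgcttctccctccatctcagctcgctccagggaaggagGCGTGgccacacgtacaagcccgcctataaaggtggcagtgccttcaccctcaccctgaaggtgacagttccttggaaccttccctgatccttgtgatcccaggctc
AHRR (chr5:322360-322659, plus strand): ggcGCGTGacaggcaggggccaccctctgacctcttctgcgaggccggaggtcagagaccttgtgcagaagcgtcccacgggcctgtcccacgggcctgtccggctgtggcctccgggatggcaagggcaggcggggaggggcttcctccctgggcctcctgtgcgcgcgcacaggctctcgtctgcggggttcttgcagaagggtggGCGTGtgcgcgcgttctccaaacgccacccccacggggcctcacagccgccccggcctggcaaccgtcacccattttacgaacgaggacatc
SOS1 (chr2:39124819-39125118, minus strand): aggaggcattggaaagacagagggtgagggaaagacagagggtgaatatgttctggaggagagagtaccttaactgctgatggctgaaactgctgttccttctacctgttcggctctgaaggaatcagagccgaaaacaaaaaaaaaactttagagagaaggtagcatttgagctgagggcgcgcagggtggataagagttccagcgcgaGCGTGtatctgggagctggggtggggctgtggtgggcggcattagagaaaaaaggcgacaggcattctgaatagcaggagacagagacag
The core GCGTG was searched on both strands, and its reverse complement would read CACGC. It stood in 12832 of 35116 promoter windows (36.5%). Of the 9 AHR targets with a window, 6 held it in at least 1 window (66.7%), and so did 40.6% of all genes with a window. The share was much the same in the NRF2 targets, 14 of 22 with a window (63.6%), so it does not set the AHR targets apart. Another window of SOS1 did not hold it, and neither did the window of CYP1A2.

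The other members of the list moved less or not at all. CYP1B1, a further P450 of the family, had 0.288, 0.487 and 0.235 CPM with the extract, against 0, 0.0380 and 0.160 CPM with vehicle (log2 change 2.28, SE 0.631, adjusted p = 0.00822). Its call was lost without extract replicate 2 (adjusted p = 0.0628) and without vehicle replicate 1 or 2 (adjusted p = 0.0754 and 0.0504). UGT1A1, the enzyme that conjugates bilirubin, had 0.899, 0.771 and 0.745 CPM with the extract, against 0.0771, 0.228 and 0.200 CPM with vehicle (log2 change 2.23, adjusted p = 0.000548). UGT1A genes share most of their exons, so how their reads were divided is uncertain. NQO1, a quinone reductase that is also an NRF2 target, and SLC7A5, an amino acid transporter that is also in the ATF4 list, rose by 0.79 and 0.48. TIPARP, another repressor of the receptor, had 23.6, 24.5 and 25.2 CPM with the extract, against 23.8, 23.5 and 22.9 CPM with vehicle (log2 change 0.06, adjusted p = 0.454), and its groups overlapped. CYP2S1 (log2 change 0.17, adjusted p = 0.486) and UGT1A6 (log2 change -1.11, adjusted p = 0.615, on single counts per library) were not called either. Of 6 genes for the receptor and its partners, 1 fell and no other was called. AHR itself had 39.4 ± 1.19 CPM with the extract, against 42.8 ± 0.954 CPM with vehicle (log2 change -0.12, adjusted p = 0.191), and ARNT fell by 0.20 (adjusted p = 0.0132), a call lost without extract replicate 3 (adjusted p = 0.0512) or vehicle replicate 1 (adjusted p = 0.0762).

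**Figure D2:**
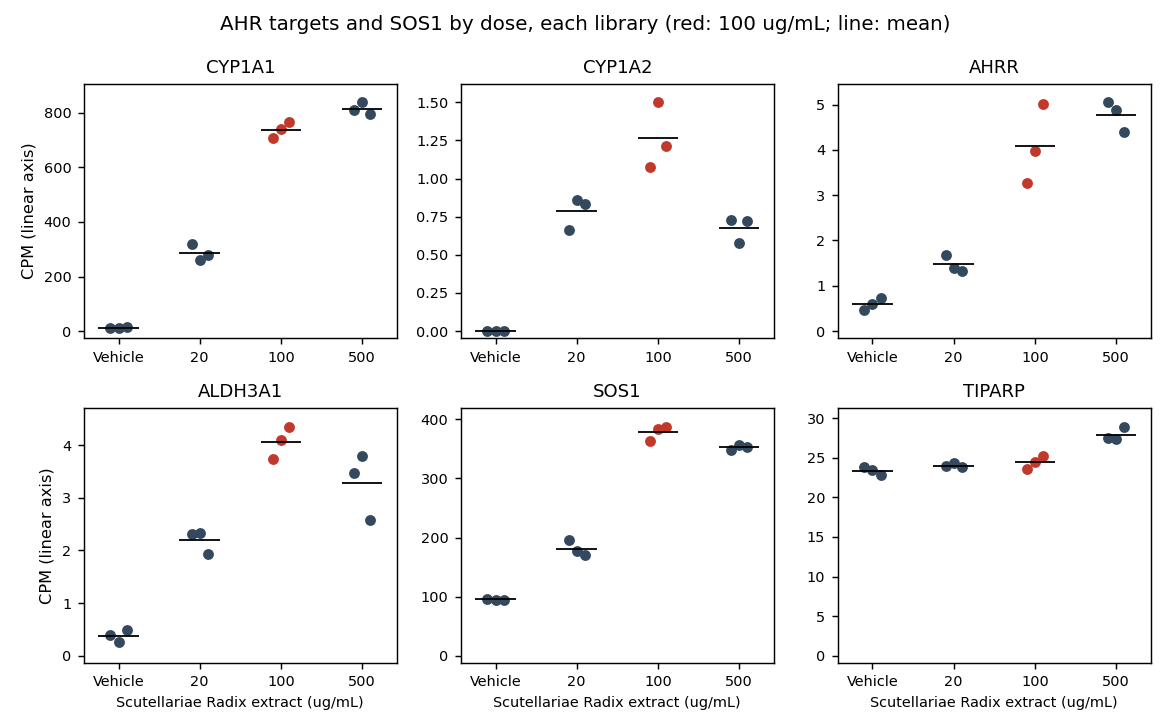
Level in CPM (vertical axis, linear) of CYP1A1, CYP1A2, AHRR, ALDH3A1, SOS1 and TIPARP in each library of vehicle and of Scutellariae Radix at 20, 100 and 500 ug/mL (horizontal axis), with the group mean as a line and the 100 ug/mL libraries in red. At 100 ug/mL CYP1A1 lies at 708 to 765 CPM and SOS1 at 363 to 388 CPM, while TIPARP stays within the range of the other groups.

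Beyond the list, the largest rises included genes of varied function. SOS1 (ENSG00000115904, chromosome 2, 38981396 to 39124345, minus strand), the exchange factor that loads RAS with GTP, had 363, 383 and 388 CPM with the extract, against 96.8, 94.3 and 94.8 CPM with vehicle (log2 change 1.99, SE 0.0615, adjusted p = 4.79e-30). The 2 groups were far apart, with little spread in either. LRRC25 had 3.60, 4.50 and 3.61 CPM with the extract, against 0.694, 0.646 and 0.280 CPM with vehicle (log2 change 2.83, SE 0.28, adjusted p = 3.1e-11), and LRRN4, another leucine-rich repeat protein, had 3.24, 2.76 and 3.84 CPM with the extract, against 0.270, 0.532 and 0.601 CPM with vehicle (log2 change 2.80, SE 0.251, adjusted p = 1.67e-12). Genes named here by size, SOS1 among them, had to have groups without overlap, so their separation was set by that rule. GALNT6, which starts O-linked glycan chains, and MYOF, a membrane repair protein, rose by 1.97 and 1.79. NKAIN1 and the adrenergic receptor ADRA1D, both near 1 CPM with the extract, rose by 2.21 and 1.85. UQCRFS1P1, a processed pseudogene whose reads may come from its parent gene, had 1.40, 3.17 and 0.627 CPM with the extract, against 0.0771, 0.152 and 0.481 CPM with vehicle (log2 change 2.85, adjusted p = 0.0243). Its call was lost without extract replicate 2 (adjusted p = 0.203) and without vehicle replicate 1 or 2 (adjusted p = 0.112 and 0.0913).

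NRF2 targets rose as a group, by less than 2-fold each. Of 30 listed, 29 passed the filter on low counts, ME1 being the exception. Of these, 23 rose and none fell (0 at an unadjusted p under 0.05 and 0 by DESeq2), with a median of 0.36 against -0.005 over all genes. GCLM, the modifier subunit of the enzyme that limits glutathione synthesis, had 94.1, 102 and 95.7 CPM with the extract, against 56.8, 58.6 and 54.5 CPM with vehicle (log2 change 0.78, SE 0.0502, adjusted p = 3.42e-17). TXNRD1, which reduces thioredoxin, had 364, 373 and 359.6 CPM with the extract, against 242, 242 and 234 CPM with vehicle (log2 change 0.61, SE 0.0342, adjusted p = 3.56e-19). HMOX1, which breaks down heme, had 82.3, 85.9 and 91.3 CPM with the extract, against 51.8, 54.0 and 54.6 CPM with vehicle (log2 change 0.69, SE 0.0478, adjusted p = 2.64e-16). In all 3 genes every extract library lay above every vehicle library.

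The promoters of GCLM and TXNRD1 are shown as those of strongly raised NRF2 targets that hold the core of the antioxidant response element. Windows and source are as for the AHR targets, and the capitals mark TGACNNNGC or its reverse complement GCNNNGTCA.
GCLM (chr1:93909381-93909680, minus strand): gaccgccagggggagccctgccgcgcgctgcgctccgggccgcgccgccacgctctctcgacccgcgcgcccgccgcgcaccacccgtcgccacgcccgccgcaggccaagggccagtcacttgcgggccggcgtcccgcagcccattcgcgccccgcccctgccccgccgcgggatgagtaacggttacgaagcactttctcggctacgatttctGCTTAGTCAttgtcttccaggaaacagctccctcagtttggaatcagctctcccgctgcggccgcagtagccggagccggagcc
TXNRD1 (chr12:104215529-104215828, plus strand): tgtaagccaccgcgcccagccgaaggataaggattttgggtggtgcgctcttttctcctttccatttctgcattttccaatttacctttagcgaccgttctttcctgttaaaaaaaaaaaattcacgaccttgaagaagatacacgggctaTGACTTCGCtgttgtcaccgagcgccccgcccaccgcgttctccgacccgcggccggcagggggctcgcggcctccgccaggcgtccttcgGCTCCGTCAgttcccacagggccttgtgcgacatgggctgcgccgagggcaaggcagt
This core stood in 4687 of 35116 promoter windows (13.3%), and 16.1% of all genes with a window held it in at least 1. Of 22 NRF2 targets with a window, 8 did (36.4%). NQO1, OSGIN1 and SRXN1 were among those whose window did not hold these letters.

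Within the list the highest log2 changes were those of OSGIN1 (0.89), an oxidative stress response gene, the aldo-keto reductase AKR1B10 (0.87) and NQO1 (0.79). NQO1 had 1138, 1159 and 1148 CPM with the extract, against 663, 668 and 662 CPM with vehicle. Rises were also called for SLC7A11 (0.50), the cystine importer, GCLC (0.38), the catalytic partner of GCLM, and GSR (0.43), which regenerates glutathione. SRXN1 rose by 0.68. Pentose phosphate enzymes, which supply NADPH, rose by smaller amounts, TKT by 0.36, TALDO1 by 0.21 and PGD by 0.15. The ferritin chains FTH1 and FTL rose by 0.38 and 0.30, and the export pumps ABCC3 and ABCC2, which carry conjugates out of the cell, by 0.57 and 0.52. TXN (0.24), GPX2 (0.10), EPHX1 (0.07), TRIM16L (0.01), AKR1C1 (0.02) and AKR1C3 (-0.03) were not called. The AKR1C genes are near-identical copies, so the division of reads between them, including the rise of AKR1C2 (0.45), is uncertain.

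Of 8 genes for NRF2 and its partners, 2 rose. SQSTM1, the autophagy receptor that captures KEAP1 and is itself an NRF2 target, had 320.1, 322 and 329 CPM with the extract, against 222, 235 and 239 CPM with vehicle (log2 change 0.48, SE 0.0399, adjusted p = 1.38e-13). MAFG, a small MAF partner, rose by 0.32. The transcript of NRF2 itself, NFE2L2, had 275 ± 2.88 CPM with the extract, against 274 ± 9.22 CPM with vehicle (log2 change 0.00, adjusted p = 0.979), and KEAP1 had a log2 change of 0.14 (adjusted p = 0.0537).

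**Figure D3:**
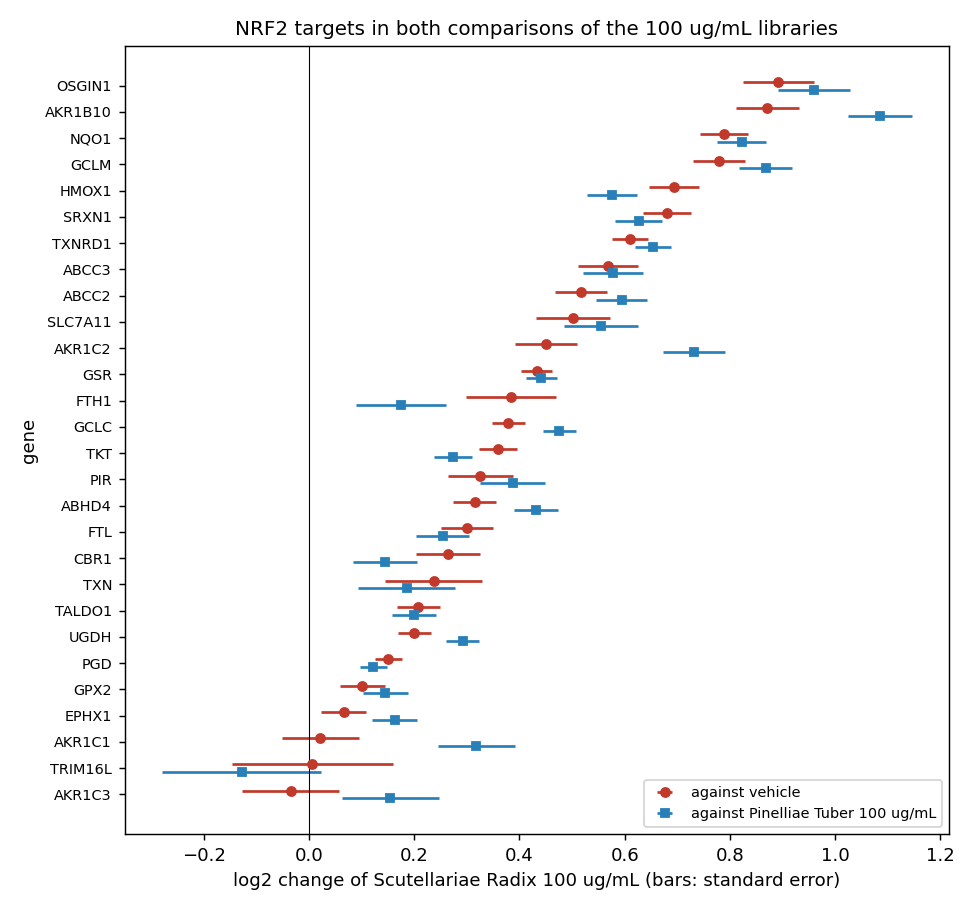
Log2 change ± SE (horizontal axis) of 28 of the 29 NRF2 targets tested (rows) with Scutellariae Radix 100 ug/mL against vehicle and against Pinelliae Tuber 100 ug/mL, n = 3 libraries a group. Changes against vehicle run from -0.03 for AKR1C3 to 0.89 for OSGIN1.

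Other enzymes and carriers of foreign compounds moved in both directions. Of 23 conjugating enzymes tested, 7 rose and 5 fell, with a median of 0.01, beside 7.27% and 7.34% of all genes tested. MGST1, a microsomal glutathione transferase, had 244, 263 and 261 CPM with the extract, against 188, 188 and 176 CPM with vehicle (log2 change 0.48, SE 0.0419, adjusted p = 9.3e-13). UGT2B4, a glucuronosyltransferase that acts on bile acids, had 1.98, 2.27 and 2.24 CPM with the extract, against 4.51, 4.14 and 4.37 CPM with vehicle (log2 change -1.01, SE 0.153, adjusted p = 1.73e-06). The sulfotransferases SULT1A1 and SULT1A2, near-identical copies whose reads may be split, rose by 0.33 and 0.36, while UGT2B10 fell by 0.30 and the glutathione transferase GSTA1 fell by 0.24. Of 10 genes of the drug-sensing receptors PXR and CAR, 2 rose and 3 fell. ALAS1, the first enzyme of heme synthesis, rose by 0.40 and the drug pump ABCB1 by 0.22. CYP3A7, the fetal CYP3A enzyme, had 2.98, 3.49 and 3.49 CPM with the extract, against 6.40, 7.22 and 6.21 CPM with vehicle (log2 change -0.996, SE 0.127, adjusted p = 3.4e-08), and CYP3A5 fell by 0.58 (adjusted p = 0.000108). CYP3A4, the main adult drug-metabolising P450, was under 1 CPM in both groups and was not called (adjusted p = 0.493).

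Bile acid genes moved in both directions. Of 12 tested, 4 fell and 2 rose, ABCC2 among the rises, beside 7.34% and 7.27% of all genes tested. NR1H4, which encodes the bile acid receptor FXR, had 54.9, 54.3 and 50.4 CPM with the extract, against 74.4, 79.5 and 72.9 CPM with vehicle (log2 change -0.51, SE 0.0484, adjusted p = 1.08e-11). NR0B2, the corepressor SHP that FXR induces, had 26.9, 28.3 and 29.6 CPM with the extract, against 42.1, 40.1 and 42.1 CPM with vehicle (log2 change -0.55, SE 0.0712, adjusted p = 4.44e-08). SLC51B, a subunit of a basolateral bile acid exporter and also an FXR target, had 3.34, 2.52 and 3.80 CPM with the extract, against 6.78, 6.72 and 7.09 CPM with vehicle (log2 change -1.09, SE 0.133, adjusted p = 1.11e-08). The phospholipid pump ABCB4 fell by 0.41 (adjusted p = 3.43e-05). In each of these 4 genes all extract libraries lay below all vehicle libraries. CYP7A1, the rate-limiting enzyme of bile acid synthesis, was under 1 CPM in both groups (log2 change -0.21, adjusted p = 0.813). The other rise was that of CYP27A1 (0.15), an enzyme of the alternative synthesis route, and its call was lost without extract replicate 1 (adjusted p = 0.0654) or vehicle replicate 1 (adjusted p = 0.0758).

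Among ATF4 targets, which supply amino acids under stress, 12 of 30 rose and none fell (4 at an unadjusted p under 0.05 and 0 by DESeq2), with a median of 0.15. GDF15, a stress hormone also listed as a p53 target, had 217, 208 and 214 CPM with the extract, against 137, 134 and 151 CPM with vehicle (log2 change 0.60, SE 0.0562, adjusted p = 6.88e-12). The amino acid transporters SLC7A11, SLC7A5 and its partner SLC3A2 rose by 0.50, 0.48 and 0.41, and SLC1A5 by 0.33. SLC7A5 and SLC7A11 stand in the AHR and NRF2 lists as well. Factors that carry the stress response itself were not called, with log2 changes of 0.08 for ATF4, -0.15 for DDIT3 and 0.18 for ATF3. In each of the fits without extract replicate 3, without the libraries that stood apart and on the 2 groups alone, 3 genes of this list fell, and 1 with a replicate block. Over all genes tested, 7.27% rose and 7.34% fell. Of 20 endoplasmic reticulum chaperones and unfolded protein response genes, 2 rose and 4 fell, HERPUD1 by 0.28 and SEL1L by 0.24. Without extract replicate 2 or 3 or vehicle replicate 2 or 3, 1 of these genes rose.

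Ribosome biogenesis genes rose in 13 of 22 and fell in none (0 at an unadjusted p under 0.05 and 0 by DESeq2), each by a small amount (median 0.13). MYC, the factor that drives this programme, had 201, 196 and 206 CPM with the extract, against 164, 160.3 and 166 CPM with vehicle (log2 change 0.30, SE 0.0447, adjusted p = 1.42e-06). BOP1 and PES1, partners in large subunit assembly, rose by 0.33 and 0.26, and RRP9 by 0.30. The extract libraries of these 4 genes lay above the vehicle libraries. Of 23 replication genes, 4 rose, RRM2, a subunit of ribonucleotide reductase, by 0.17 and the helicase subunit MCM7 by 0.12. Of 22 mitotic genes, 2 rose and 1 fell, and the proliferation marker MKI67 had a log2 change of 0.02 (adjusted p = 0.947). The mitotic counts are near the shares of all genes tested, 7.27% upward and 7.34% downward. Without extract replicate 2 or 3 or vehicle replicate 2 or 3 there was 1 mitotic rise, and without extract replicate 1 or vehicle replicate 1 no mitotic gene fell. Without the filter on low counts no mitotic gene rose, and 2 fell by DESeq2 and 3 on the 2 groups alone. Of 25 glycolysis and hypoxia genes, 7 rose (11 on the 2 groups alone) and 2 fell (0 without extract replicate 1 or vehicle replicate 3, and 1 without extract replicate 3). Among the rises were ADM, a vasodilator peptide, at 0.55 and the enzymes ALDOA and ENO1 at 0.23 and 0.18. The falls were those of HK1 and SLC2A1, with log2 changes of -1.009 to -0.689 and -0.151 to -0.1 over the alternatives.

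Among secreted liver proteins, falls outnumbered rises. Of 26 tested, 11 fell and 1 rose, with a median of -0.11. ALB, which encodes albumin, had 8595, 8487 and 8344 CPM with the extract, against 10310, 10710 and 10850 CPM with vehicle (log2 change -0.33, SE 0.055, adjusted p = 1.39e-05). TTR, the thyroxine carrier transthyretin, had 33.0, 34.6 and 37.4 CPM with the extract, against 53.9, 51.2 and 56.8 CPM with vehicle (log2 change -0.62, SE 0.0698, adjusted p = 1.09e-09). FGB, the fibrinogen beta chain, had 217, 218 and 203 CPM with the extract, against 283, 271 and 282 CPM with vehicle (log2 change -0.39, SE 0.0343, adjusted p = 9.39e-13). In these 3 genes the groups did not overlap. The alpha chain FGA and hemopexin (HPX), which binds free heme, fell by 0.36 and 0.55. The rise was that of AMBP (0.25), the precursor of alpha-1-microglobulin. APOB, which encodes the core protein of very low density lipoprotein, was not called (log2 change -0.21, adjusted p = 0.223). Several of these genes are among the hepatocyte markers whose sum was lower with the extract.

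Of 17 hepatocyte transcription factors, 2 rose and 4 fell. HNF4A, the central regulator of hepatocyte genes, had 439, 423 and 440 CPM with the extract, against 347, 349.6 and 355 CPM with vehicle (log2 change 0.31, SE 0.0303, adjusted p = 2.64e-11). FOXA3, a pioneer factor, had 21.7, 21.1 and 22.7 CPM with the extract, against 31.6, 31.0 and 30.1 CPM with vehicle (log2 change -0.50, SE 0.0627, adjusted p = 2.27e-08). The extract libraries lay above the vehicle libraries for HNF4A and below them for FOXA3. NR2F1 fell by 0.34, FOXA1 fell by 0.15 and TBX3 rose by 0.20, and NR1H4, described above, also stands in this list. Among 17 acute phase and NF-kappaB genes, 1 rose and 4 fell, haptoglobin (HP) by 0.27 and SAA4 by 0.32. Without vehicle replicate 1, 2 of these genes fell, and without extract replicate 2 or vehicle replicate 1 or 2 none rose.

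FOXO targets and insulin-repressed genes split between 1 rise and 8 falls of 18 tested (median -0.20). Beside the counts of this paragraph stand 7.27% of all genes tested that rose and 7.34% that fell. IGFBP1, a secreted binding protein of insulin-like growth factors, had 79.9, 92.4 and 83.1 CPM with the extract, against 37.5, 37.0 and 44.8 CPM with vehicle (log2 change 1.10, SE 0.09, adjusted p = 8.49e-14). CCNG2, a FOXO-induced cyclin, had 8.31, 7.06 and 6.63 CPM with the extract, against 10.3, 9.57 and 9.57 CPM with vehicle (log2 change -0.42, SE 0.0877, adjusted p = 0.000435), and TXNIP, an inhibitor of thioredoxin, fell by 0.33. Both gluconeogenic genes of the list were not called, G6PC1 at -0.20 (adjusted p = 0.426) and PCK1 at -0.21 (adjusted p = 0.326). Of 19 fatty acid oxidation genes, 4 rose and 1 fell. CREB3L3, a membrane-bound factor of lipid metabolism, had 12.7, 12.9 and 14.9 CPM with the extract, against 8.17, 7.83 and 9.33 CPM with vehicle (log2 change 0.67, SE 0.0883, adjusted p = 6.2e-08), and CPT1A, the gate of fatty acids into mitochondria, rose by 0.47. Of 17 fatty acid synthesis genes, 1 rose (3 without the filter on low counts), DGAT1 by 0.35, and 4 fell, GPAM by 0.34 and ACSL3 by 0.24. Of 25 cholesterol genes, 3 fell and none rose (0 at an unadjusted p under 0.05 and 0 by DESeq2). On the 2 groups alone 5 fell and 1 rose, and without the libraries that stood apart 5 fell.

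Immediate early genes, which growth factor signals switch on, fell in 6 of 22 and rose in 2. EGR1 had 8.13, 6.86 and 7.73 CPM with the extract, against 11.7, 11.1 and 12.8 CPM with vehicle (log2 change -0.64, SE 0.0859, adjusted p = 9.91e-08). DUSP5, a phosphatase that inactivates ERK, had 2.66, 3.21 and 2.82 CPM with the extract, against 3.85, 3.91 and 4.41 CPM with vehicle (log2 change -0.49, SE 0.122, adjusted p = 0.00321). SPRY4, another brake on RAS signalling, had 44.1, 41.4 and 40.8 CPM with the extract, against 54.4, 52.1 and 54.7 CPM with vehicle (log2 change -0.35, SE 0.0546, adjusted p = 2.77e-06). In all 3 genes the extract libraries lay below the vehicle libraries. EGR3 fell by 2.36 at under 1 CPM (adjusted p = 0.00527), and its call was lost without vehicle replicate 2 (adjusted p = 0.133). EGR2 had 1 count over the extract group and 12 over the vehicle group, a ratio of 0.0826 (95% interval 0.00193 to 0.558, counting error only). The test called it (adjusted p = 0.0297), but not without extract replicate 1 or 3 or vehicle replicate 3 (adjusted p = 0.128, 0.115 and 0.136). FOSL1, an AP-1 subunit, rose by 0.37, and FOS itself was not called (adjusted p = 0.8). DUSP6 also rose, with log2 changes of 0.131 to 0.224 over the alternatives. Its call was lost without extract replicate 2 (adjusted p = 0.0689). The list held 1 rise without extract replicate 2, and 4 rises without the filter on low counts or without the libraries that stood apart.

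By the same rule, which required groups without overlap, the largest falls were those of receptors, channels and developmental genes at modest levels. PDGFRB (ENSG00000113721, chromosome 5, 150113837 to 150155872, minus strand), the platelet-derived growth factor receptor beta, had 3.31, 3.25 and 2.98 CPM with the extract, against 8.94, 9.72 and 9.57 CPM with vehicle (log2 change -1.56, SE 0.105, adjusted p = 1.17e-16). KCNJ10, an inward rectifier potassium channel, had 9.38, 9.13 and 9.57 CPM with the extract, against 25.2, 24.8 and 25.8 CPM with vehicle (log2 change -1.43, SE 0.0869, adjusted p = 4.8e-18). HOXD1, a homeobox factor, had 6.29, 6.33 and 5.02 CPM with the extract, against 17.1, 15.3 and 16.3 CPM with vehicle (log2 change -1.46, SE 0.106, adjusted p = 1.61e-15). The vehicle libraries of all 3 genes were more than 2 times the extract libraries. NGFR, the low-affinity nerve growth factor receptor, fell by 1.39, the betaine transporter SLC6A12 by 1.37, the inhibin subunit INHBB by 1.24 and DEPP1, a FOXO-regulated gene, by 1.17. CDKN2B, which encodes the cell cycle inhibitor p15, had 3.09, 2.60 and 2.55 CPM with the extract, against 6.48, 5.92 and 5.77 CPM with vehicle (log2 change -1.14, SE 0.108, adjusted p = 1.08e-11). HS3ST5, which modifies heparan sulfate, the complement gene C7 and the long noncoding RNA UCA1 fell by 1.14, 1.14 and 1.13.

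Metal genes moved in both directions, while 7.27% of all genes tested rose and 7.34% fell. Of 13 metallothionein and zinc genes, 3 rose and 5 fell. MT1E and MT1F fell by 0.39 and 0.37, although the MT1 genes are near-identical copies and the division of their reads is uncertain. The zinc importer SLC39A10 rose by 0.44. Of 23 iron genes, 5 rose and 5 fell. SLC40A1, the iron exporter ferroportin, had 45.9, 49.1 and 47.6 CPM with the extract, against 66.1, 65.3 and 65.8 CPM with vehicle (log2 change -0.47, SE 0.0445, adjusted p = 9.38e-12), and TFRC, the transferrin receptor for iron uptake, had 566, 600.3 and 573 CPM with the extract, against 467, 476 and 468 CPM with vehicle (log2 change 0.30, SE 0.0343, adjusted p = 1.58e-09). The groups of both genes were separate, and FTH1, FTL and HMOX1, which rose, stand in this list and in that of NRF2. HAMP, which encodes the iron hormone hepcidin, had 53.7, 53.8 and 63.6 CPM with the extract, against 68.2, 66.0 and 63.9 CPM with vehicle (log2 change -0.21, adjusted p = 0.0186). Its call was lost without extract replicate 1 or 2 (adjusted p = 0.135 and 0.114) or vehicle replicate 1 (adjusted p = 0.0913). In the fits without extract replicate 1 or 2 or vehicle replicate 1, 3 iron genes fell in place of 5.

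Other lists held few calls, and are to be read beside the 7.27% of all genes tested that rose and the 7.34% that fell. Of 15 transcripts of the mitochondrial genome none was called by edgeR (4 rose and 0 fell at an unadjusted p under 0.05), with a median of 0.17. DESeq2 called none either, while there were 2 rises without extract replicate 2, 9 on the 2 groups alone and 12 without the filter on low counts. Of 26 nuclear respiratory chain genes 1 rose and 1 fell. Without extract replicate 1 or vehicle replicate 3 none of these fell, without extract replicate 2 there were 2 falls, without the libraries that stood apart 4 and on the 2 groups alone 5. Of 23 p53 targets 3 rose and 4 fell, TP53INP1 by 0.31, and of 16 heat shock genes 4 rose, HSPA8 by 0.18, and 1 fell. Of 23 autophagy and lysosome genes 3 rose and 4 fell, WIPI1, which acts in autophagosome formation, by 0.57. Such small counts moved with single libraries and with the fit. The falls of p53 targets were 1 without extract replicate 3, vehicle replicate 3 or the filter on low counts, and their rises were 1 without extract replicate 1 or vehicle replicate 2. The falls of autophagy and lysosome genes were 1 to 3 with any 1 library left out, with 1 without extract replicate 1 or vehicle replicate 3, and 2 without the filter. OAS1, an antiviral enzyme, rose by 0.62 as the sole call among 13 interferon response genes. Of 12 markers of other cell types that were tested, 3 rose and 1 fell. The rises were those of the macrophage marker CD68 (0.48), PECAM1 and HBA1. PECAM1 lost its call without vehicle replicate 1, and HBA1 without vehicle replicate 2 or 3. The fall was that of COL1A1, at 0.380 CPM with the extract and 0.739 CPM with vehicle. This fall was not called by DESeq2, or without extract replicate 2 or 3 or vehicle replicate 1 or 3, while 3 fell on the 2 groups alone. The part of these markers in the results above was not tested.

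**Figure D4:**
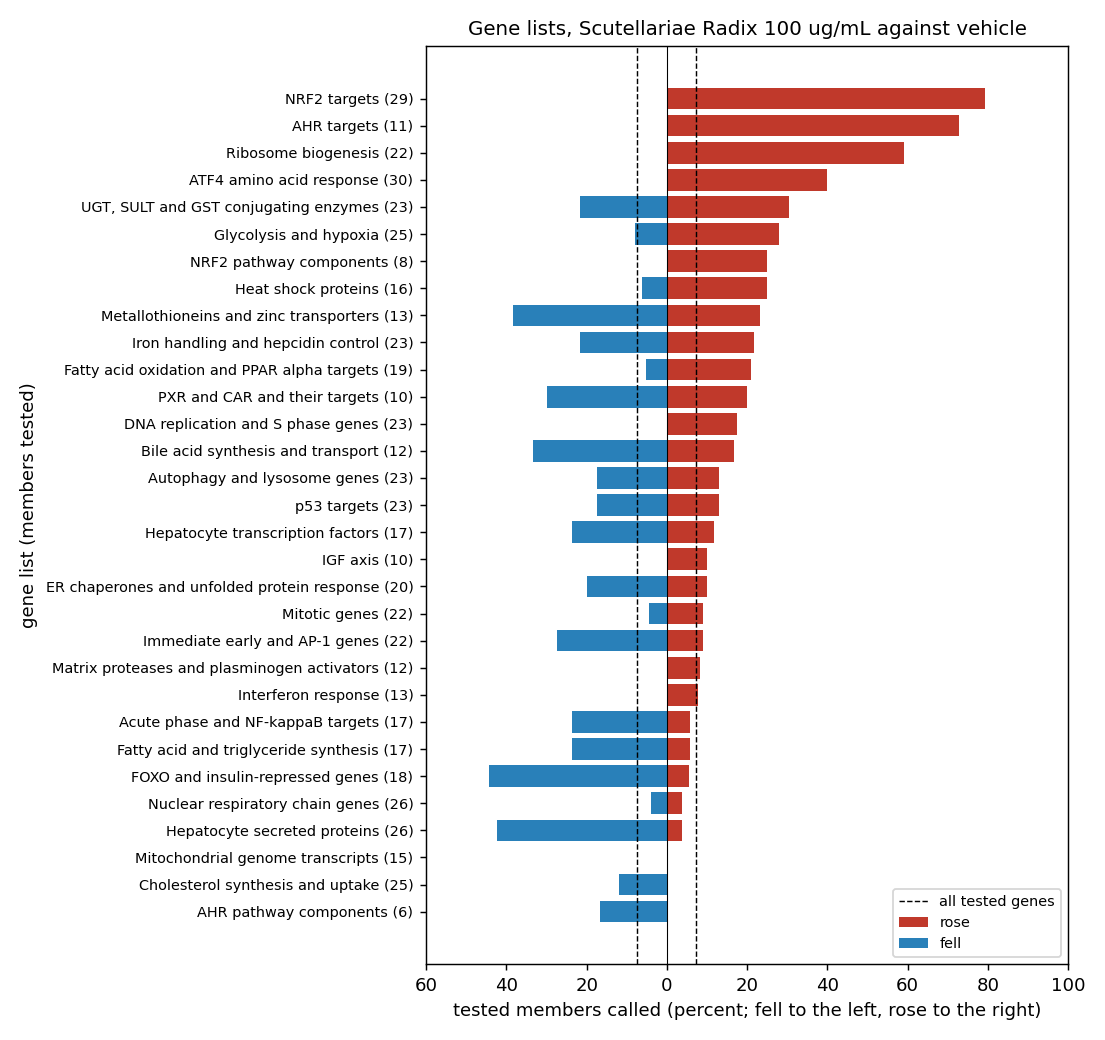
Percent of tested members of each gene list that rose or fell with Scutellariae Radix 100 ug/mL against vehicle (horizontal axis), 1 row per list, with dashed lines at the share of all genes tested that rose (7.27%) and fell (7.34%). NRF2 targets (23 of 29), AHR targets (8 of 11) and ribosome biogenesis genes (13 of 22) have the longest bars to the side of rises.

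Pinelliae Tuber is the tuber of Pinellia ternata, and at 100 ug/mL its extract changed 34 genes against vehicle (0.204%). Scutellariae Radix at the same dose differed from it in 1863 genes (11.2%), of which 926 were higher (5.56%) and 937 lower (5.63%) with Scutellariae Radix. Without the Pinelliae Tuber library that stood apart, and 2 such libraries of other groups, 1762 genes differed. All 8 called AHR targets were higher, and so were 24 of 29 NRF2 targets and 12 of 22 ribosome biogenesis genes, with none lower in these lists (0 at an unadjusted p under 0.05 and 0 by DESeq2). CYP1A1 averaged 738 ± 28.3 CPM with Scutellariae Radix and 12.1 ± 0.531 CPM with Pinelliae Tuber (log2 change 5.93, SE 0.0915, adjusted p = 9.44e-44). CYP1A2 had 98 counts over the Scutellariae Radix group and 3 over the Pinelliae Tuber group, a ratio of 32.4 (95% interval 10.8 to 160, counting error only). SOS1 averaged 378 ± 13.1 CPM with Scutellariae Radix and 87.3 ± 11.2 CPM with Pinelliae Tuber (log2 change 2.11, SE 0.062, adjusted p = 4.18e-31). LRRC25, AHRR and ALDH3A1 were also among the 5 largest rises, at 3.57, 2.89 and 2.87. PDGFRB averaged 3.18 ± 0.174 CPM with Scutellariae Radix and 8.73 ± 1.06 CPM with Pinelliae Tuber (log2 change -1.46, SE 0.106, adjusted p = 1.56e-15). HOXD1, NGFR and KCNJ10 had log2 changes of -1.42, -1.42 and -1.32.

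Secreted liver proteins were lower than with Pinelliae Tuber in 14 of 26 and higher in none (1 at an unadjusted p under 0.05 and 0 by DESeq2, but 1 call without Pinelliae Tuber replicate 3), with TTR at -0.60, FGA at -0.52 and ALB at -0.32. NR0B2 and NR1H4 had log2 changes of -0.72 and -0.45, and SLC51B of -0.90. For a few genes the call depended on what the extract was set against. UQCRFS1P1 was not called against Pinelliae Tuber (log2 change 0.33, adjusted p = 0.824), and neither was UCA1 (-0.39, adjusted p = 0.293). HAMP was higher than with Pinelliae Tuber (log2 change 0.34, SE 0.0667, adjusted p = 0.000239), whereas against vehicle it was lower. Pinelliae Tuber itself had less HAMP than vehicle (log2 change -0.55, adjusted p = 1.04e-06), where the extract had a change of -0.21. UQCRFS1P1 and UCA1 were not called between Pinelliae Tuber and vehicle (adjusted p = 0.29 and 0.0844). TBC1D3D, one of several near-identical copies whose reads can be split, had no count with Scutellariae Radix and 101 over the Pinelliae Tuber group, at least 33.9-fold lower. Its call was lost without any 1 of the Scutellariae Radix replicates (adjusted p = 0.067, 0.0573 and 0.0647 without replicate 1, 2 and 3) and without Pinelliae Tuber replicate 1 (adjusted p = 0.0506). Fitted on these 2 groups alone, the comparison called 765 genes in place of 1863, among them 4 ribosome biogenesis genes that were higher in place of 12 and 9 secreted liver proteins that were lower in place of 14.

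The same extract at 100 and at 20 ug/mL differed in 353 genes (2.12%), of which 134 were higher at 100 ug/mL (0.805%) and 219 lower (1.32%). Of the AHR targets, 5 of 11 were higher at 100 ug/mL, CYP1A1 at 738 ± 28.3 CPM against 288 ± 30.2 CPM at 20 ug/mL (log2 change 1.36, SE 0.0684, adjusted p = 2.01e-20). AHRR averaged 4.09 ± 0.879 CPM at 100 ug/mL and 1.47 ± 0.191 CPM at 20 ug/mL (log2 change 1.47, SE 0.168, adjusted p = 3.86e-08), and SOS1 averaged 378 ± 13.1 CPM at 100 ug/mL and 181 ± 13.1 CPM at 20 ug/mL (log2 change 1.06, SE 0.059, adjusted p = 6.81e-19). NKAIN1, LRRC25 and LRRN4, with log2 changes of 1.62, 1.36 and 1.14, completed the 5 largest rises of this comparison. Of the NRF2 targets 10 were higher at 100 ug/mL, GCLM by 0.36 and OSGIN1 by 0.32, and none lower (1 at an unadjusted p under 0.05 and 0 by DESeq2). None of the 22 ribosome biogenesis genes was called between these doses (5 higher and 0 lower at an unadjusted p under 0.05, and 1 higher by DESeq2), with a median of 0.04. Their median against vehicle was 0.10 at 20 ug/mL and 0.13 at 100 ug/mL. Among the falls, KCNJ10 averaged 9.36 ± 0.220 CPM at 100 ug/mL and 17.0 ± 2.52 CPM at 20 ug/mL (log2 change -0.86, SE 0.0907, adjusted p = 3.62e-09), and HOXD1 had a log2 change of -0.88. The serine protease gene TMPRSS3, the zinc finger gene ZNF425 and C7, each under 2 CPM, had log2 changes of -0.996, -0.95 and -0.91. Each of these 3 calls was lost on the 2 groups alone (adjusted p = 0.0764, 0.132 and 0.0794), without 20 ug/mL replicate 3 (adjusted p = 0.211, 0.218 and 0.142), and without 100 ug/mL replicate 3 (adjusted p = 0.122, 0.095 and 0.0584). TMPRSS3 also lost it without 100 ug/mL replicate 2 (adjusted p = 0.0672), ZNF425 and C7 without 100 ug/mL replicate 1 (adjusted p = 0.188 and 0.2), and C7 without 20 ug/mL replicate 1 (adjusted p = 0.0619). NR1H4 was lower at 100 ug/mL as well, at -0.27. The number called here moved with the libraries used, with 197 without Scutellariae Radix 100 ug/mL replicate 1, 226 without its replicate 3, 225 without 20 ug/mL replicate 2 and 216 without 20 ug/mL replicate 3. It also moved with the fit, to 583 without the 3 libraries of other groups that stood apart and to 234 on the 2 groups alone.

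Between 500 and 100 ug/mL 8074 genes differed (48.5%), of which 3996 were higher at 500 ug/mL (24%) and 4078 lower (24.5%). Of 11 AHR targets, 5 were higher and 2 lower at 500 ug/mL (median 0.19). Against vehicle, 10 of the 11 rose at 500 ug/mL and none fell (0 at an unadjusted p under 0.05), beside 24.7% and 25.5% of all genes tested. CYP1A1 averaged 815 ± 23.1 CPM at 500 ug/mL and 738 ± 28.3 CPM at 100 ug/mL and did not pass the test (log2 change 0.14, SE 0.0666, adjusted p = 0.0727). It passed without the filter on low counts (adjusted p = 0.0114), with a replicate block (adjusted p = 0.0384), without the libraries of other groups that stood apart (adjusted p = 0.0361) and on the 2 groups alone (adjusted p = 0.00126). CYP1A2 averaged 0.677 ± 0.0855 CPM at 500 ug/mL and 1.26 ± 0.216 CPM at 100 ug/mL (log2 change -0.89, SE 0.322, adjusted p = 0.0193). Without replicate 2 of either dose this call was lost (adjusted p = 0.0727 without 500 ug/mL replicate 2 and 0.0856 without 100 ug/mL replicate 2), which left 1 AHR target lower. Over the doses CYP1A1 averaged 12.3 ± 1.13 CPM with vehicle, 288 ± 30.2 CPM at 20 ug/mL, 738 ± 28.3 CPM at 100 ug/mL and 815 ± 23.1 CPM at 500 ug/mL. Most NRF2 targets differed again between these doses, with 17 higher and 4 lower at 500 ug/mL, SLC7A11 by 1.86, GCLC by 1.04 and TXNRD1 by 0.84. Without 100 ug/mL replicate 3, 2 were lower. GCLM averaged 56.6 ± 2.05 CPM with vehicle, 75.9 ± 2.62 CPM at 20 ug/mL, 97.3 ± 4.23 CPM at 100 ug/mL and 144 ± 6.24 CPM at 500 ug/mL, each dose above the last. IGFBP1 averaged 39.8 ± 4.38 CPM with vehicle, 58.4 ± 3.34 CPM at 20 ug/mL, 85.1 ± 6.49 CPM at 100 ug/mL and 1200 ± 54.2 CPM at 500 ug/mL.

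The 500 ug/mL dose also differed from 100 ug/mL across whole gene groups. All 22 mitotic and all 23 replication genes were lower at 500 than at 100 ug/mL, and 21 of 23 p53 targets and 26 of 30 ATF4 targets were higher. The cell cycle inhibitor CDKN1A was higher by 2.19 and the stress factor ATF3 by 3.02. Of the cholesterol genes 22 of 25 were lower and of the immediate early genes 20 of 22 higher. Ribosome biogenesis genes were mixed, with 4 of 22 higher and 9 lower at 500 than at 100 ug/mL. Their median against vehicle was 0.02 at 500 ug/mL. The 5 largest rises were ATP6V0D2, a proton pump subunit, with 93 counts at 500 ug/mL and none at 100 ug/mL (at least 32.8-fold higher), the heat shock gene HSPA6 (6.82), GEM with 123 and 3 counts (ratio 43.3, 95% interval 14.5 to 213), KLHDC7B with 107 and 3 counts (ratio 37.7, 95% interval 12.6 to 186) and the matrix protease MMP3 (4.89). The 5 largest falls were EIF3CL (-4.28), a near-identical copy of EIF3C, HAMP (-3.38), MT1M (-2.45), ACSM2A (-2.37) and FGFR2 (-2.27). EIF3CL lost its call without 100 ug/mL replicate 1 (adjusted p = 0.0858).

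In 438 of the 16641 genes tested the 100 and 500 ug/mL doses moved in opposite directions against vehicle, and the 2 doses also differed from each other. Of these, 233 were higher than vehicle at 100 ug/mL and lower at 500 ug/mL, and 205 the reverse. Against vehicle, 500 ug/mL changed 8354 genes, 50.2% of all genes tested, 24.7% upward and 25.5% downward. The 100 ug/mL dose changed 2431 genes (14.6%), 7.27% upward and 7.34% downward, so the 438 are a minority of the genes called at either dose. The 2 vehicle comparisons share their vehicle libraries. The difference between the doses uses the same 100 and 500 ug/mL libraries, so it is no separate test of this pattern. The genes named below were picked for the size of that difference. EGR1 averaged 11.9 ± 0.874 CPM with vehicle, 8.91 ± 0.327 CPM at 20 ug/mL, 7.57 ± 0.648 CPM at 100 ug/mL and 106 ± 8.37 CPM at 500 ug/mL (500 against 100 ug/mL: log2 change 3.81, SE 0.0684, adjusted p = 5.51e-41). DUSP5 averaged 4.06 ± 0.303 CPM with vehicle, 3.57 ± 0.286 CPM at 20 ug/mL, 2.90 ± 0.280 CPM at 100 ug/mL and 63.7 ± 4.73 CPM at 500 ug/mL (500 against 100 ug/mL: log2 change 4.46, SE 0.0848, adjusted p = 3.96e-40). CDKN2B averaged 6.06 ± 0.372 CPM with vehicle, 3.84 ± 0.139 CPM at 20 ug/mL, 2.75 ± 0.301 CPM at 100 ug/mL and 30.6 ± 1.41 CPM at 500 ug/mL (500 against 100 ug/mL: log2 change 3.47, SE 0.0895, adjusted p = 1.21e-34). All 3 genes were lowest at 100 ug/mL and highest at 500 ug/mL, and EGR3 and IER3, an early response gene, were the other two with the largest difference of this kind. In the other direction, SLC22A7, which carries organic anions into hepatocytes, averaged 7.38 ± 0.224 CPM with vehicle, 11.5 ± 0.755 CPM at 20 ug/mL, 11.03 ± 0.332 CPM at 100 ug/mL and 4.06 ± 0.543 CPM at 500 ug/mL (500 against 100 ug/mL: log2 change -1.44, SE 0.106, adjusted p = 1.54e-16), and EPO, the red cell hormone erythropoietin, averaged 5.18 ± 0.509 CPM with vehicle, 6.94 ± 0.740 CPM at 20 ug/mL, 7.20 ± 0.538 CPM at 100 ug/mL and 2.95 ± 0.366 CPM at 500 ug/mL (500 against 100 ug/mL: log2 change -1.28, SE 0.11, adjusted p = 2.9e-14). ATOH8, a factor that raises hepcidin, ITGAL, an integrin subunit, and MIXL1 had the largest differences of this kind besides. The calls of these last 3 genes at 100 ug/mL against vehicle depended on single libraries. ATOH8 lost its call without extract replicate 3 (adjusted p = 0.0687) or vehicle replicate 1 (adjusted p = 0.061), ITGAL without extract replicate 1 or 3 (adjusted p = 0.0936 and 0.0841) or vehicle replicate 2 (adjusted p = 0.129), and MIXL1 without extract replicate 2 (adjusted p = 0.056).

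**Figure D5:**
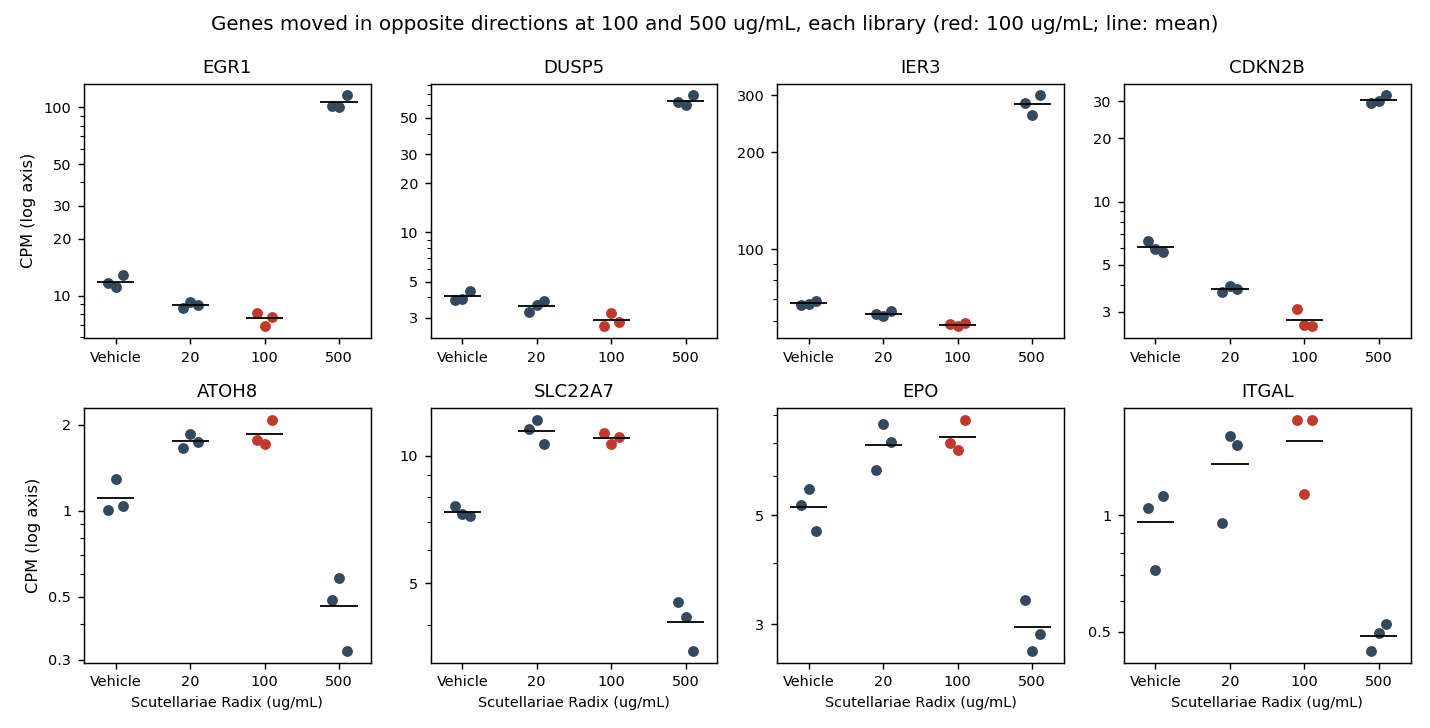
Level in CPM (vertical axis, log scale) of EGR1, DUSP5, IER3, CDKN2B, ATOH8, SLC22A7, EPO and ITGAL in each library of vehicle and of Scutellariae Radix at 20, 100 and 500 ug/mL (horizontal axis), with the group mean as a line. EGR1, DUSP5, IER3 and CDKN2B are lowest at 100 ug/mL and highest at 500 ug/mL, and the other 4 genes are lowest at 500 ug/mL.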

How the data were processed

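RNA-seq libraries of HepG2 cells were prepared with a directional MGI mRNA kit and read as pairs of 100 bases, per the labels. The authors deposited RSEM expected counts per gene (estimated counts, not normalized). Per the submitters' processing notes, STAR 2.7.3a, RSEM 1.3.3, Trim Galore 0.6.5, FastQC 0.11.9 and GRCh38 were used. Of all nonzero values 24.44% were not whole, and the expected counts were rounded. The gene annotation and strand setting were not given in the sources used here. The deposited table listed 60675 genes in 267 columns, 208 of them not used here.

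All 59 libraries entered 1 model with 20 group means (edgeR 4.0.16, TMM, filterByExpr, quasi-likelihood test, two-sided, Benjamini-Hochberg over 16641 genes, called at an adjusted p under 0.05). Log2 changes and SEs come from this model, means ± SD from CPM scaled by TMM (n = 3). Reads of antisense or overlapping genes may not be separable. Symbols were found for 56558 identifiers, GENCODE 29 coordinates (GRCh38) for 57055, and all 621 list genes matched. Some list members are counted but not reported singly here. A library was said to stand apart where its mean chi-square per gene against every replicate was over 15. The test was tried on simulated counts for the vehicle comparison (16157 genes): it recovered 54% of genes changed 1.25-fold, 74% at 1.5-fold, 88% at 2-fold and 98% at 4-fold, 50 genes each. It also called 9 genes that were not changed. Intervals and floors cover counting error only. Without unique molecular identifiers, reads are not independent molecules.

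The comparison, gene lists and alternatives were chosen with earlier results of these data known. Named were list members; the 12 largest called changes each way against vehicle, and the 5 in the other comparisons, among genes with a symbol, 1 CPM in the higher group and groups that did not overlap; and the 5 largest differences each way among genes called in opposite directions at 100 and 500 ug/mL. Alternatives were RLE size factors, no filter, DESeq2 1.42.0, the 2 groups alone, a replicate block, and leaving out single replicates or the libraries that stood apart.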

Additional observations from a re-analysis of the deposited data

How the results depend on the processing

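Against vehicle the number of genes called, 2431, became 2427 with DESeq2's way of scaling (RLE size factors), 2208 without the filter on low counts, 3086 without the 3 libraries that stood apart, 2976 on the 2 groups alone and 2309 by DESeq2. Leaving out 1 library at a time gave 1816 to 2162. Against Pinelliae Tuber the 1863 calls became 765 on the 2 groups alone and 1407 to 1747 with 1 library left out. Between 100 and 20 ug/mL the 353 calls became 583 without the libraries that stood apart, 234 on the 2 groups alone and 197 to 300 with 1 library left out. Between 500 and 100 ug/mL the 8074 calls became 7322 to 7488 with 1 library left out. The cause of these moves was not tested.

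Whether the replicate numbers pair the samples is not stated. Same-numbered extract and vehicle libraries deviated from their group means with correlations of -0.012, 0.059 and -0.018. Libraries with unlike numbers had correlations of -0.042 to 0.054. With 3 libraries a group, such values cannot show that there is no pairing. With replicate number as a block 2467 genes were called against vehicle, 1879 against Pinelliae Tuber, 358 between 100 and 20 ug/mL and 8086 between 500 and 100 ug/mL.

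Of 212 named or listed genes called against vehicle, 154 kept their call under every alternative, 58 lost it under at least 1, and 0 changed direction. Log2 changes that changed sign were those of genes not called, MKI67 (-0.027 without extract replicate 3, up to 0.042 without other libraries), NFE2L2 (-0.005 without extract replicate 3 and -0.019 without vehicle replicate 2, up to 0.029) and, against Pinelliae Tuber, UQCRFS1P1 (-0.406 without Scutellariae Radix replicate 2, up to 0.722). Depth limits genes with few counts, such as CYP1A2 and EGR2. Small changes can be missed as well, since 54% of simulated 1.25-fold changes were recovered. The simulation did not vary depth or the number of replicates, so the part of each was not tested.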
